A study of Rattus norvegicus with 38 samples.

Results

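Gene expression in the inferior part of the sinoatrial node was compared with that in the right atrium of healthy rat hearts, by RNA sequencing of 4 libraries from each, out of 38 libraries in the series. The groups were taken from the labelled region and health state. The inferior node libraries are titled SB_0920, SB_0921, SB_1001 and SB_1002, and the right atrium libraries RA_0920, RA_0921, RA_1001 and RA_1002. The code that ends a title recurs across regions and sets the libraries in 4 pairs. No label states that a code is an animal. Nothing in the labels says that libraries of a group are separate animals, so the p-values speak of the spread among these libraries, which may be partly technical.

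Both healthy groups come from male Sprague-Dawley rats aged 10 weeks. Failing hearts, with 4 libraries each of the inferior node and the right atrium under other codes, came from males of the same strain and age. The growth protocol describes pups whose ascending aorta was constricted at 1 week and whose left ventricle then enlarged. This text is attached to healthy and failing libraries alike, and no treatment of the healthy animals is stated separately. Tissue pieces were taken from explanted, arrested hearts. Healthy superior node (4 libraries), left atrium (4) and left ventricle (2) served to place the genes among regions.

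The sinoatrial node is the natural pacemaker of the heart, a small strip of tissue at the border of the right atrium and the superior vena cava. Its muscle cells depolarise by themselves and contract weakly, while the neighbouring right atrial muscle waits for a signal, conducts it fast and contracts. Node tissue also holds connective tissue, nerve endings and small vessels, so a piece of node differs from a piece of atrium in its mix of cells as well as in the state of its muscle cells. In such pieces, fewer cells of a type and less RNA per cell cannot be told apart.

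The files identify genes by Ensembl gene ID and do not pair IDs with names, and the reference table matched 0 of the 24057 IDs. Lists drawn up of pacemaker channels, node transcription factors, working muscle genes and cell type markers were therefore not applied, and the labelled tissues were not checked against marker genes. The results are given as numbers of genes, their sizes and levels, and the values of the few IDs that the rule selects. No role is given to any ID.

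Totals per library were 20394009 to 23830328 estimated counts in the inferior node and 20984417 to 22458030 in the right atrium, with an exact two-sided permutation p of 1. The 10 most abundant genes took 35.6% to 45.2% of the TPM (transcript abundance corrected for length and library size) in the inferior node and 36.9% to 39.4% in the right atrium (exact permutation p = 0.857). Genes at 1 TPM or more numbered 12586 ± 156 in the inferior node and 12280 ± 136 in the right atrium (SD, n = 4 each), a difference that did not pass (exact permutation p = 0.0571, where the smallest possible is 0.0286).

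Large differences in expression between the healthy inferior node and the healthy right atrium ran almost wholly towards higher expression in the node. Of 14129 genes tested, 1515 (10.7%) were higher and 974 (6.89%) lower in the inferior node at a Benjamini-Hochberg adjusted p under 0.05 in the quasi-likelihood test of edgeR. At least 2-fold differences were called for 756 genes (5.35%) on the higher side and 82 genes (0.58%) on the lower side, so that 90.2% of them were higher in the node. The split was 303 higher against 6 lower at 4-fold, 133 against 3 at 8-fold, and 83 against 0 at 16-fold. At 32-fold or more, 55 genes were higher and 0 lower.

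The lower genes were numerous but changed little. Their median log2 difference was -0.45 (quartiles -0.63 and -0.33), against a median of 1.00 (quartiles 0.59 and 1.71) for the higher genes and 0.01 for all genes tested. The biological coefficient of variation, the spread between libraries beyond counting error, was 0.173. Among the higher genes, 1395 had groups of libraries that did not overlap, as did 902 of the lower ones. Over all genes tested, groups did not overlap in 12.7% with the node higher and in 10.5% with the node lower.

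The number of lower genes moved more with the choice of libraries and scaling. It was 499 without SB_1001, and 557, 631, 576 and 585 without RA_0920, RA_0921, RA_1001 and RA_1002. Other settings raised it, to 1327 with DESeq2 (1888 higher) and 1282 without SB_0920 (1867 higher). With the code as a block, 1759 genes were higher and 1294 lower. In limma on log2(TPM + 1), without rescaling between libraries, 1022 genes were higher and 391 lower, a share of 72.3% higher against 60.9% in the main test. In 1 fit of all 38 libraries 950 were higher and 227 lower. The genes called in the same direction in all 17 settings numbered 554 on the higher side, which is 36.6% of the higher genes, and 114 on the lower side, which is 11.7% of the lower genes. Of these, 444 and 32 differed by at least 2-fold.

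**Figure D1:**
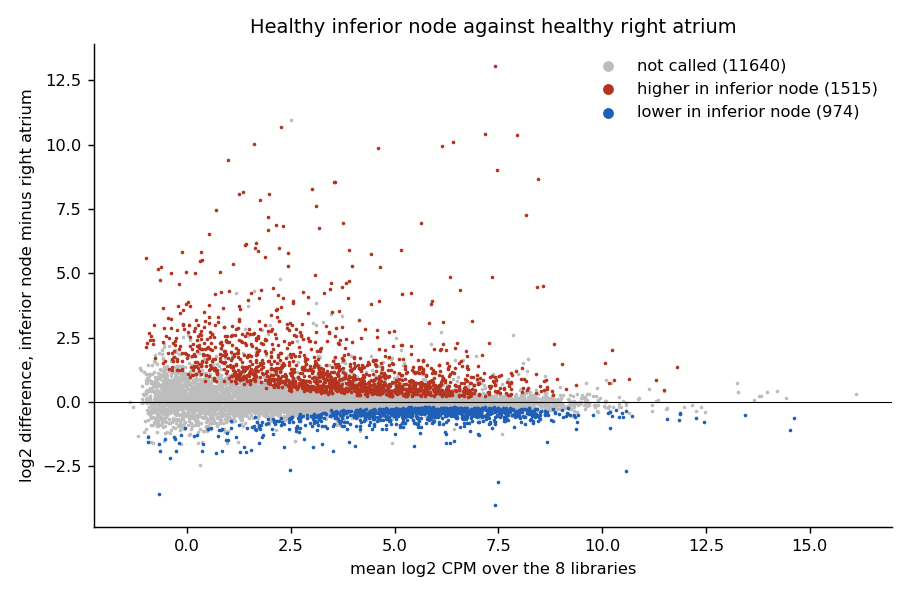
Log2 difference (healthy inferior node minus healthy right atrium) of each of the 14129 genes tested against its mean log2 CPM over the 8 libraries; red points are the 1515 genes higher and blue points the 974 genes lower in the inferior node at an adjusted p under 0.05, grey points the rest. Red points reach beyond 10 on the log2 scale, while the lowest named gene lies at -3.99.

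The calls in each direction differed in number with the level of the gene. Genes were split into 5 classes of equal size by their mean log2 CPM (counts scaled to library size). In the lowest class (up to 1.89), 375 genes were called higher and 54 lower, which is 13.3% and 1.91% of the 2825 genes in it. In the highest class (from 5.87), 237 were higher and 457 lower, or 8.39% and 16.2%. The classes were also compared by size alone, called or not, because calls depend on counts. From the lowest class to the highest, 483, 235, 110, 66 and 78 genes lay at 2-fold or more above the right atrium, and 77, 18, 8, 5 and 17 below it. Higher genes outnumbered lower ones in each class at that size. The median log2 difference was 0.18 in the lowest class and -0.07 in the highest. Among the 79 genes at 1000 TPM or more in either group mean, 5 were called higher and 15 lower, with a median log2 difference of -0.04. Lower calls also outnumbered higher ones in the highest class as a whole (16.2% against 8.39%), so these 79 are not read as a separate result.

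**Figure D2:**
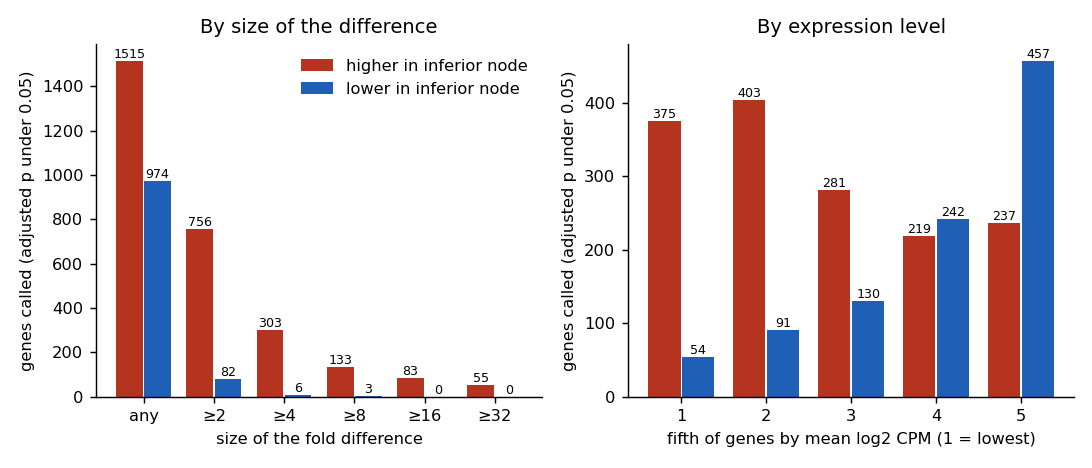
Number of genes called higher (red) and lower (blue) in the healthy inferior node than in the healthy right atrium, on the left by the smallest fold difference counted and on the right by class of mean expression level. Higher genes outnumber lower ones at each fold size and in the 3 lowest level classes, while in the highest class 457 genes are lower and 237 higher.

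A smaller set of genes had very low levels in the atrium. The 55 genes that were at least 32-fold higher, a size fitted from low atrial counts, had a median group mean of 7.14 CPM in the inferior node and 0.063 CPM in the right atrium. Other regions did not enter this choice, and the same genes had medians of 11.7 CPM in the superior node, 0.139 CPM in the left atrium and 0.153 CPM in the left ventricle of healthy hearts. In the left atrium 44 of the 55 had a mean under 1 CPM, as did 42 in the left ventricle and 6 in the superior node. These 55 genes together made up 0.0327%, 0.515%, 0.226% and 0.275% of the TPM in SB_0920, SB_0921, SB_1001 and SB_1002. In the right atrium they made up 0.000831% to 0.00143%. A gene near 0 in the right atrium passes the filter on counts only through the inferior node, and the fold size then chose these genes. Their gap between inferior node and right atrium was thus fixed beforehand and is given as a description.

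ENSRNOG00000003580 had the largest rise that met the naming rule. It had 3.89, 1100, 118 and 27.7 CPM in SB_0920, SB_0921, SB_1001 and SB_1002, against 0, 0.127, 0 and 0 CPM in RA_0920, RA_0921, RA_1001 and RA_1002. The groups did not overlap, and the node libraries themselves lay far apart. With 3 counts in all 4 right atrium libraries together, the ratio of pooled CPM was 8770, with a 95% interval of 3000 to 42500 that covers counting error in the atrium only. The fitted log2 difference was 13.06 (SE 3.03, edgeR adjusted p = 0.03). All 4 node libraries lay above all 4 atrial ones, which the naming rule requires of each gene it selects, in its own direction.

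In the test without a block, that call depended on single libraries: it was lost in 5 of the 8 omissions. The edgeR adjusted p was 0.08, 0.18, 0.079 and 0.084 without RA_0920, RA_0921, RA_1001 and RA_1002, and 0.056 without SB_1001, with log2 differences of 12.70 to 15.88. It was 0.014, 0.03 and 0.037 without SB_0920, SB_0921 and SB_1002, with log2 differences of 13.47, 10.42 and 13.46. It was 0.058 in limma on log2(TPM + 1), and 1.1e-08 in edgeR with the code as a block. The lowest and highest adjusted p over the alternatives were 1.1e-08 and 0.18. The healthy superior node had 1490, 2390, 484 and 259 CPM, while the left atrium stayed at 0.0822 CPM or less and the left ventricle at 0.141 CPM or less. In failing hearts the inferior node had 88.1, 19.2, 88.1 and 0.201 CPM and the right atrium at most 0.0366 CPM, and the gene fell below the filter on counts in that comparison.

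ENSRNOG00000008310 came next in size among the genes that met the rule. It had 1.01, 15.6, 6.56 and 11.6 CPM in the inferior node libraries and 0 counts in each of the 4 right atrium libraries. Against the limit that 0 allows, 3 counts over the 4 right atrium libraries (0.0315 CPM), the pooled inferior node level of 8.21 CPM was at least 260-fold higher. The edgeR adjusted p was 0.035. It was 2e-04 with the code as a block, 0.083 with no filter, and between 0.057 and 0.099 when any 1 library other than SB_0920 was left out. In fits without the block, the call was thus lost with no filter and without each of 7 libraries.

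Outside these 8 libraries, ENSRNOG00000008310 was likewise seen in node libraries of both health states. It was at 3.75 to 29.5 CPM in the healthy superior node and at 0 in healthy left atrium and left ventricle. In failing hearts it was at 5.99 to 22.6 CPM in the inferior node and at most 0.0366 CPM in the right atrium, with edgeR adjusted p = 0.00013. Both rising genes were lowest in SB_0920 and highest in SB_0921 among the inferior node libraries.

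ENSRNOG00000062678 had the largest fall under the rule. It had 17.6, 21.3, 18.3 and 17.3 CPM in the inferior node libraries, against 244, 342, 327 and 282 CPM in the right atrium libraries. The node libraries lay close together, far below each atrial library. The log2 difference was -3.99 (SE 0.13, edgeR adjusted p = 1.6e-07). In failing hearts the inferior node had 20.8, 30.9, 27.6 and 17 CPM and the right atrium 719, 601, 580 and 372 CPM, which differed by -4.54 on the log2 scale (SE 0.28, adjusted p = 4e-05 with edgeR).

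The level of this gene was graded across the other healthy regions. The superior node had 49.6, 21.7, 224 and 65.1 CPM, the left atrium 49.3 to 149 CPM and the left ventricle 6.65 and 7.82 CPM. The superior node and the left atrium overlapped, and ST_1001 of the superior node came near the right atrium. Between superior node and right atrium, where 23.2% of all genes tested were called, its log2 difference was -1.70 (SE 0.59, edgeR adjusted p = 0.067), and -2.19 with the code as a block (adjusted p = 0.034). Between inferior and superior node the log2 difference was -2.30 and did not pass (SE 0.65, edgeR adjusted p = 0.43).

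ENSRNOG00000020369 had the next largest fall. It had 28.9, 41.9, 35.5 and 30.5 CPM in the inferior node libraries and 248, 306, 319 and 310 CPM in the right atrium libraries. The log2 difference was -3.10 (SE 0.13, edgeR adjusted p = 1e-06), and -3.33 in failing hearts (SE 0.36, edgeR adjusted p = 0.00068). The left atrium did not share the high level, with 33.6, 32.5, 60.4 and 33.7 CPM, which overlapped with the inferior node. The left ventricle had 23.6 and 26.9 CPM. ST_1001, at 252 CPM, again lay apart from the other superior node libraries at 44.5 to 89.8 CPM.

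The calls of both falling genes held in all 16 alternative settings. Each of ENSRNOG00000003580, ENSRNOG00000062678 and ENSRNOG00000020369 had 1 transcript in the deposited transcript table with the same TPM in all 38 libraries (relative tolerance 1e-06). Per length, mean levels in the inferior node were 373 ± 606 TPM for ENSRNOG00000003580, 5.06 ± 3.37 TPM for ENSRNOG00000008310, 12.7 ± 0.643 TPM for ENSRNOG00000062678 and 9.91 ± 1.21 TPM for ENSRNOG00000020369 (SD, n = 4 each).

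**Figure D3:**
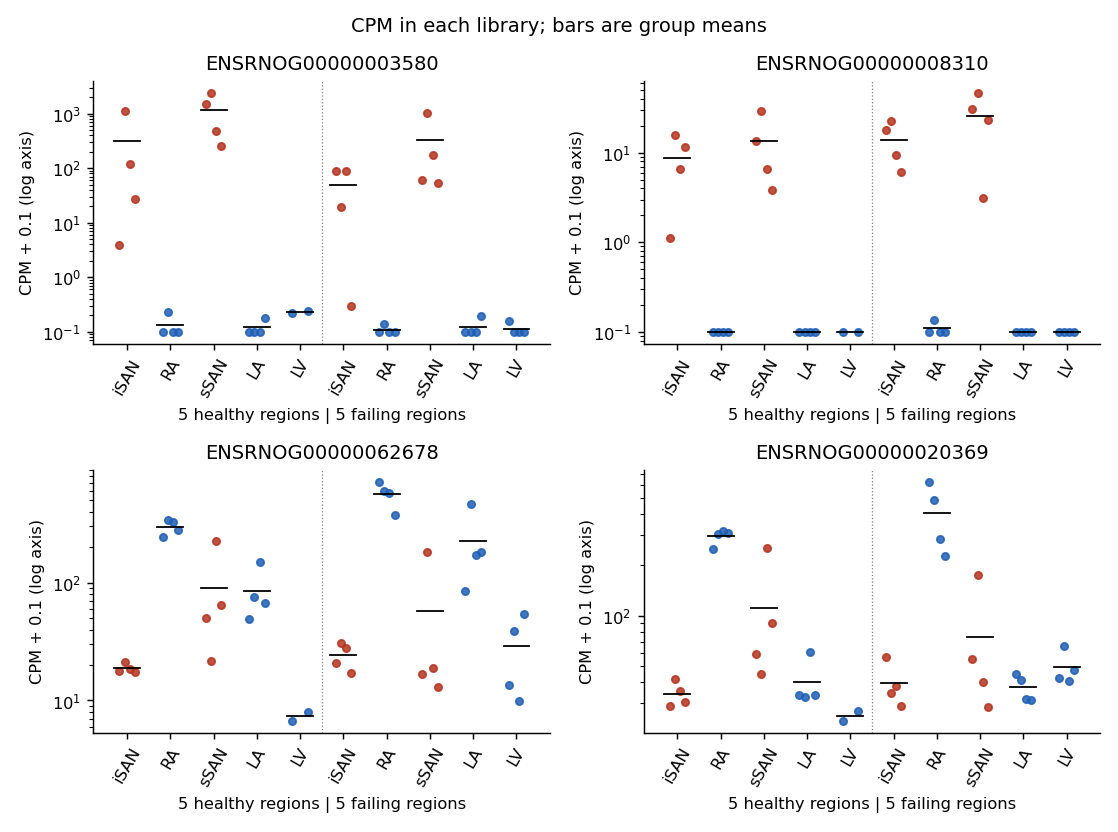
CPM plus 0.1 on a log axis in each of the 38 libraries (points) with group means (bars) for the 2 genes with the largest rise (upper row) and the 2 with the largest fall (lower row) in the healthy inferior node (iSAN) against the right atrium (RA), followed by superior node (sSAN), left atrium (LA) and left ventricle (LV); node libraries are red. The upper genes are seen in node libraries of both health states and are at or near 0 elsewhere, while the lower genes have their highest group mean in the right atrium in each health state.

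Where the other healthy regions lay was described for the larger differences, using the midpoint between the inferior node and right atrium means of each gene on the log2 scale. Of the 756 genes at least 2-fold higher in the inferior node, the superior node lay on the node side of the midpoint for 647, the left ventricle for 194 and the left atrium for 151. Their highest mean among the 5 healthy regions was in the inferior node for 418 and in the superior node for 236. It was in the left ventricle for 86 and in the left atrium for 16. The genes were chosen for a high inferior node against the right atrium, so this tally favours the inferior node and bars the right atrium. It is a description and does not set the inferior node apart from the superior node.

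For the 82 genes at least 2-fold lower in the inferior node, the superior node lay on the node side for 69 and the left ventricle for 65 (79.3%), but the left atrium for 26 (31.7%). The right atrium had the highest mean of the 5 regions for 54 of them, the left atrium for 20 and the left ventricle for 8. Here the choice of genes favours the right atrium. Together these 82 genes made up 4.23%, 1.91%, 3.14% and 4.21% of the TPM in SB_0920, SB_0921, SB_1001 and SB_1002, and 7.20% to 7.77% in the right atrium. The median of their group means in the right atrium was only 4.74 CPM, and 8 of them lay under 1 CPM. These sums thus follow the few most abundant of the 82 genes and do not describe the typical one. The left atrium had 5.10% to 6.16% and the left ventricle 0.152% and 0.160%. The superior node had 2.44%, 0.392%, 2.95% and 2.84% in ST_0920, ST_0921, ST_1001 and ST_1002, which overlapped with the inferior node. That the inferior node lay below the right atrium was fixed by the choice of these genes. The left atrium and left ventricle did not enter the choice, but it favours a low inferior node against them as well. As a description, the inferior node lay below the left atrium and above the left ventricle.

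The inferior node libraries varied more among themselves than the right atrium libraries did. The biological coefficient of variation was 0.21 within the inferior node and 0.123 within the right atrium, and the standard deviation of log2 CPM was larger in the inferior node for 8990 of the 14129 genes (63.6%). On the first principal component of the 8 libraries, which held 60.6% of the variance, SB_0920, SB_0921, SB_1001 and SB_1002 lay at 12.7, 60.7, 44.4 and 40.6, and the right atrium libraries between -42.2 and -37.8. SB_0920 was the nearest to the atrium, with a mean correlation of 0.969 with the right atrium libraries across genes, against 0.929 to 0.951 for the other inferior node libraries.

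The same library stood low for the node genes. Of the 756 genes at least 2-fold higher, SB_0920 was the lowest of the 4 inferior node libraries for 451 and the highest for 34. SB_0921 was the highest for 325. Of the 55 genes at least 32-fold higher, SB_0920 was the lowest for 45 and SB_0921 the highest for 36. Since these genes were chosen with these libraries, a list chosen elsewhere was also used: the 1133 genes at least 2-fold higher and the 209 at least 2-fold lower in the failing inferior node than in the failing right atrium, from hearts with other codes.

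On the 1133 genes, the median log2 level relative to the healthy right atrium mean was 0.73, 1.18, 1.25 and 1.27 in SB_0920, SB_0921, SB_1001 and SB_1002. It was -0.06 to 0.04 in the right atrium libraries themselves. On the 209 lower genes, the medians in the inferior node were -0.45, -1.02, -0.85 and -0.62. SB_0920 thus lay nearest to the right atrium on both lists, yet still outside the range of the right atrium libraries (-0.04 to 0.05 on the lower list). Its 17.6 and 28.9 CPM of ENSRNOG00000062678 and ENSRNOG00000020369, in contrast, were within or below the range of the other inferior node libraries. Without SB_0920, 1867 genes were called higher and 1282 lower. The part that the makeup of the pieces plays in this was not tested.

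**Figure D4:**
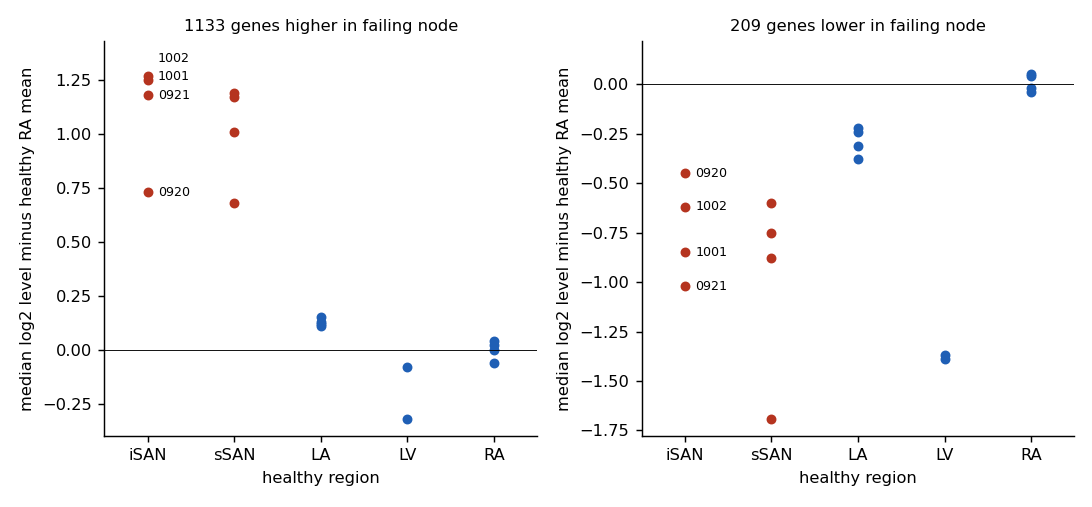
Median log2 level, relative to the mean of the healthy right atrium (RA), of the 1133 genes at least 2-fold higher (left) and the 209 at least 2-fold lower (right) in the failing inferior node than in the failing right atrium, in each healthy library (points; inferior node libraries labelled by code). Inferior node libraries lie at 0.73 to 1.27 on the left and at -1.02 to -0.45 on the right, with SB_0920 nearest to the right atrium in both.

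By code, the median log2 difference over the 1515 higher genes was 0.71 for SB_0920 minus RA_0920, 0.96 for SB_0921 minus RA_0921, 1.09 for SB_1001 minus RA_1001 and 0.93 for SB_1002 minus RA_1002. Over the 974 lower genes it was -0.30, -0.63, -0.49 and -0.40 in the same order of pairs. The genes were called from these same libraries, so the direction was largely fixed by the choice. The values describe how the pairs differ in size only.

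The difference between inferior node and right atrium recurred in failing hearts, whose libraries and codes are separate from the healthy ones. In failing hearts, 1649 of 14204 genes (11.6%) were higher and 1047 (7.37%) lower in the inferior node with edgeR. The lower genes numbered 1649 with the code as a block, and 433 to 1591 with 1 failing library left out (433, 495, 460, 570 and 447 without iSAN0506, iSAN0507, iSAN0508, RA_0506 and RA_0507, and 1591 without iSAN0409). The higher genes numbered 1065 without RA_0507. Of the 1515 genes higher in the healthy node, 1487 were tested in failing hearts, and 915 of these (61.5%) were called higher and 0 lower. Of the 974 lower genes, 963 were tested, and 428 (44.4%) were called lower and 0 higher. Seen from the other side, 58.9% of the genes higher in the failing node and tested in healthy hearts were called higher there, as were 41.0% of the lower genes.

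Sizes were also alike in the middle of the lists. For the higher genes the median log2 difference was 0.99 in failing and 0.98 in healthy hearts, and for the lower genes -0.53 in failing and -0.44 in healthy hearts. Of the 756 genes at least 2-fold higher in the healthy node, 541 (71.6% of all 756) were called higher in failing hearts, and 28 did not pass the filter on counts there. Of the 55 genes at 32-fold or more, 47 (85.5%) were called and 6 did not pass the filter. A gene near 0 in the failing atrium passes that filter only through the failing node, so the calls among genes that passed are partly fixed by it and are given as a description. Among the 11373 genes not called in healthy hearts and tested in failing ones, 5.61% were called higher and 5.41% lower in the failing node.

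**Figure D5:**
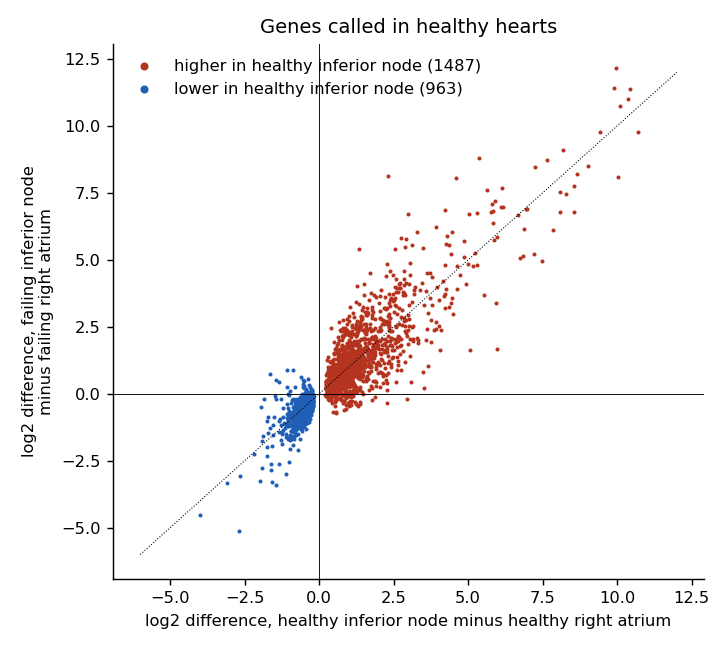
Log2 difference between inferior node and right atrium in failing hearts (vertical axis) against that in healthy hearts (horizontal axis), for the 1487 genes higher (red) and the 963 genes lower (blue) in the healthy inferior node that were tested in both; the dotted line marks equal differences. Of these, 1409 of the red points lie above 0 on the vertical axis and 927 of the blue points below it.

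A further comparison of node and atrium in healthy hearts shares no library with the first: the superior node against the left atrium, which was chosen after the data were seen and carries the same codes. With edgeR, 1723 of 14229 genes (12.1%) were higher and 1231 (8.65%) lower in the superior node. Leaving out LA_0920, LA_0921 or LA_1002 left 1779, 1756 or 1964 genes called of the 2954. Of the 1515 genes higher in the inferior node than in the right atrium, 1483 were tested here, and 727 (49.0%) were called higher and 32 (2.16%) lower. Of the 974 lower genes, 971 were tested, and 428 (44.1%) were called lower and 11 (1.13%) higher. Of the 756 genes at 2-fold or more, 445 (58.9% of all 756) were called higher, and 32 did not pass the filter on counts here. Those 445 are 61.5% of the 724 tested, whose median log2 difference was 1.21 here and 1.66 in the first comparison. A gene almost absent from the left atrium passes that filter only through the superior node. The calls among genes that passed are thus partly fixed by the filter and are given as a description. As shares of the superior node lists, 43.7% of its higher and 35.1% of its lower genes were called the same way in the inferior node.

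Whether the contrast between inferior node and right atrium itself changed with disease was tested gene by gene as an interaction. The edgeR test called 3 of 14785 genes (0.0203%), while 1716 lay under 0.05 before adjustment. DESeq2 called 95, the fit with the code as a block 8, the fit without the failing library iSAN0409 158 and that without RA_0506 6. Failing and healthy hearts share no code, so anything tied to a code, such as a batch, cannot be told apart from health state here. The 3 genes are given because they are so few, and were chosen after their values were seen.

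ENSRNOG00000002385 had 84.6, 87.4, 73 and 131 CPM in the failing inferior node and 23.7, 16.4, 16.2 and 15.9 CPM in the failing right atrium. In healthy hearts it had 15.3, 13.9, 16.1 and 14.9 CPM in the inferior node and 9.46, 9.14, 8.48 and 9.8 CPM in the right atrium. The node was thus above the atrium in both states, by more in failing hearts. The log2 difference between node and atrium was 2.40 in failing and 0.71 in healthy hearts, which differed by 1.71 (SE 0.23, edgeR adjusted p = 0.0099). Other regions also had more of this gene in failing hearts. The superior node had 12.8 to 21.9 CPM in healthy and 47.8 to 124 CPM in failing hearts. The left atrium had 11.6 to 16.3 CPM in healthy and 32.4 to 67.9 CPM in failing hearts. The left ventricle had 6.48 and 9.23 CPM in healthy and 12.2 to 29.3 CPM in failing hearts.

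ENSRNOG00000033528 had 14.8, 19.2, 11.4 and 17.8 CPM in the failing inferior node and 3.02, 3.92, 3.8 and 5.95 CPM in the failing right atrium. In healthy hearts the node (9.2 to 14.1 CPM) and the atrium (12.6 to 14.7 CPM) overlapped, and differed by -0.11 on the log2 scale (SE 0.14, adjusted p = 0.63 with edgeR). The difference of differences was 2.09 (SE 0.28, edgeR adjusted p = 0.0099). The right atrium of failing hearts lay below the other 3 groups of this test without overlap. It was not alone in a low level. The left atrium had 13.4 to 14.6 CPM in healthy and 4.63 to 7.64 CPM in failing hearts. The left ventricle had 3.1 and 4.76 CPM in healthy and 0.66 to 4.37 CPM in failing hearts. The superior node had 8.54 to 11.9 CPM in healthy and 7.19 to 18.8 CPM in failing hearts.

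ENSRNOG00000064166 had 45.4, 37.1, 40.4 and 68.4 CPM in the failing inferior node and 4.11, 4.46, 4.97 and 5.13 CPM in the failing right atrium. In healthy hearts it had 23.8, 32.4, 31.7 and 19.9 CPM in the inferior node and 0.505, 0.338, 0.591 and 0.334 CPM in the right atrium. The log2 difference was 3.38 in failing and 5.92 in healthy hearts, which differed by -2.52 (SE 0.34, edgeR adjusted p = 0.0099). The call was lost without RA_0921 (edgeR adjusted p = 0.06), and on TMM-scaled log2(TPM + 1) the sign turned (0.18, limma adjusted p = 0.74). Right atrium means were 0.0377 TPM in healthy and 0.327 TPM in failing hearts, both below the added 1. Adding 1 shrinks the difference between such values on the log scale. The inferior node means were 2.26 TPM in healthy and 4.45 TPM in failing hearts. Elsewhere in healthy hearts the superior node had 24 to 39.4 CPM, the left atrium 45.5 to 89.9 CPM and the left ventricle 75.6 and 64.4 CPM, all above the healthy right atrium.

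Between the inferior and the superior node of healthy hearts, edgeR called 1 of 14326 genes (0.00698%). Before adjustment 1463 lay under 0.05, and DESeq2 called 126. That gene was ENSRNOG00000005286, chosen after its values were seen. It had 18.6, 4.82, 18.2 and 18 CPM in the inferior node, 0.113, 0.362, 0.043 and 0.252 CPM in the superior node, and 0.378, 0.677, 0.38 and 0.501 CPM in the right atrium. It was thus high in the inferior node and low in both neighbouring regions. The log2 difference from the right atrium was 4.94 (SE 0.50, edgeR adjusted p = 0.00055). The log2 difference from the superior node was 6.27 (SE 0.60, edgeR adjusted p = 0.031). The adjusted p rose past the threshold in the fit with a block by code (0.081) and when any 1 library other than SB_0921 was left out (adjusted p 0.12 to 0.26). In failing hearts it had 9.37, 14.5, 4.22 and 15.2 CPM in the inferior node and at most 0.294 CPM in the superior node.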

How the data were processed

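Library preparation used a TruSeq kit, per the labels' protocols. The submitters' processing notes name Trimmomatic 0.39 and kallisto 0.48.0. Genome build, annotation and the step from transcripts to genes: not stated in the sources used here. The gene table, as deposited, has 24057 rows of estimated counts that carry a length scaling: for the 13474 genes above 0 in every library, count over TPM split exactly into a gene term and a library term. The deposited TPM tables have equal column sums.

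Each comparison was fitted on its own groups. Rounded counts passed filterByExpr (minimum count 10, minimum total 15) and TMM scaling, and entered edgeR 4.0.16 (quasi-likelihood F test, robust setting) under R 4.3.3. Benjamini-Hochberg adjustment ran over all genes tested, at 0.05. Log2 differences are node minus atrium, and SEs derive from the test statistic. Printed CPM values were TMM-scaled over all 38 libraries. Log2 CPM used a prior count of 2. The steps were tested on simulated counts.

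Alternatives were DESeq2 1.42.0 and, within edgeR, size factors of that kind. Further ones were no filter, limma 3.58.1 on log2(TPM + 1), on log2(TPM + 0.1) and on TMM-scaled log2(TPM + 1), a joint fit of the 38 libraries, a replicate block by code, and omission of single libraries. Same-code deviations from the group means correlated across genes at 0.17 to 0.30 in healthy and 0.30 to 0.38 in failing hearts, each over 0.1, so the shared codes pair these libraries. The main test has no block, as designed, so its counts do not use this pairing. With the block, 1759 genes were higher and 1294 lower in the healthy inferior node than in the right atrium. At 2-fold or more these were 756 and 89. Named IDs are the 2 largest rises and 2 largest falls among called genes whose mean log2 CPM reached 1 and whose groups were separate. Members, lists and rule were chosen with earlier results of these data known. Intervals and limits from counts cover counting error only.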

Additional observations from a re-analysis of the deposited data

Results flagged for a closer look

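ENSRNOG00000003580 had 1100 CPM in SB_0921 of the healthy inferior node, far above the other inferior node libraries (3.89 to 118 CPM), and 0.127 CPM in RA_0921, the single right atrium library with any count. Each was far from the other 3 libraries of its group, by a gap that chance gives in about 1 of 20 groups of well-measured values. Such gaps were looked for in 16 sets of 4 libraries and 2 were flagged, so a flag can arise by chance alone. In the right atrium the other 3 libraries were at 0, so a single library with any count stands apart by construction, and nothing is read from it. The contrast between inferior node and right atrium differed with health state (failing minus healthy, tested as an interaction with edgeR) by 1.71 for ENSRNOG00000002385, 2.09 for ENSRNOG00000033528 and -2.52 for ENSRNOG00000064166.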

How the results depend on the processing

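The number of genes called between healthy inferior node and right atrium was 2489. It was 3215 with DESeq2, 2515 with its type of size factors, 2451 with no filter, 2331 in limma on TMM-scaled TPM and 3053 with the code as a replicate block. It was 1413 and 1487 in limma on unscaled log2(TPM + 1) and log2(TPM + 0.1), with 391 and 404 lower genes, and 1177 in the fit of all 38 libraries, with 950 higher and 227 lower. Leaving out 1 library gave 1563 (without SB_1001) to 3149 (without SB_0920), with 1064 to 1867 higher and 499 to 1282 lower. At least 2-fold, the higher genes numbered 590 to 957 and the lower 51 to 121, the lowest of each without SB_1001. In failing hearts the total of 2696 was 1512 to 3519 with 1 library left out, with 1065 to 1928 higher and 433 to 1591 lower. It was 1727 without iSAN0506, 1744 without iSAN0508 and 1512 without RA_0507, and lower genes numbered 1628 with DESeq2 and 1649 with the block. The 3 interaction genes became 95 with DESeq2, 8 with the block, and 2 to 158 with 1 library left out (158 without iSAN0409, 6 without RA_0506). The 1 gene between the node parts became 126 with DESeq2, 3 with no filter, 0 in limma on TMM-scaled TPM, 2 with the block and 0 to 2 with 1 library left out. The healthy superior node differed from the right atrium in 3269 of 14108 genes (23.2%), 1937 to 3629 with 1 library left out (2128, 1937, 2160 and 2115 without RA_0920, RA_0921, RA_1001 and RA_1002). It differed from the left atrium in 2954 genes, 1756 to 3333 with 1 left out, and 1779, 1756 and 1964 without LA_0920, LA_0921 and LA_1002. The cause of these shifts was not tested. The interaction of ENSRNOG00000064166 was 0.18 in limma on TMM-scaled log2(TPM + 1). Of the 8 IDs in the comparison that named each, the block changed the call of ENSRNOG00000005286. Between the node parts the same-code correlations were -0.06 to 0.54, with 3 of 4 over 0.1, so the rule of every pair over 0.1 was not met. Each node part did meet that rule with the right atrium, at 0.17 to 0.30 for the inferior and 0.20 to 0.23 for the superior node. The correlations thus do not decide whether the codes pair the node parts with each other. The planned counts by gene list were not run, since the IDs carry no names.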

Other observations

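The 756 genes at least 2-fold higher in the healthy inferior node than in the healthy right atrium made up a small part of the transcripts. They took 1.27%, 2.48%, 2.14% and 1.98% of the TPM in SB_0920, SB_0921, SB_1001 and SB_1002, against 0.495% to 0.573% in the healthy right atrium. In failing hearts, whose libraries did not enter the choice, they took 2.70% to 4.88% in the inferior node and 0.749% to 1.12% in the right atrium, without overlap. The 82 genes at least 2-fold lower took 4.20% to 6.25% in the failing inferior node and 9.10% to 15.3% in the failing right atrium, again without overlap. Such sums follow the most abundant genes of a set. The median group mean of these 82 genes was 4.61 CPM in the failing right atrium.

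Genes called lower were more frequent among genes with a larger length term, the ratio of estimated count to TPM. In 5 classes of equal size by this ratio, 112 genes (3.96%) were lower in the class of smallest and 329 (11.6%) in the class of largest ratio, while 254 (8.99%) and 311 (11.0%) were higher. Regardless of the call, 37 genes in the class of smallest ratio and 20 in the class of largest ratio lay at 2-fold or more below the right atrium. The length term and the number of counts behind a gene were not separated here.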
